A study of Saccharomyces cerevisiae with 55 samples.

Results

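The arrays described here compared an altered Rpd3 strain, labelled Rpd3ibs, with wild type yeast while both were under osmotic stress. They are the 2 arrays of 55 whose titles name Rpd3ibs in KCl, and each gives, for every gene, the ratio of RNA from Rpd3ibs cells (strain ACY614) to RNA from wild type cells (strain ACY044) after 20 min in 0.375 M KCl. All strains of the study were haploid Saccharomyces cerevisiae of the W303 background and mating type a, and each genotype is represented by 1 strain. The labels do not spell out what ibs stands for or which residues of Rpd3 were changed.

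Values from 6 other groups are set beside them. These were Rpd3ibs over wild type in log growth (2 arrays), the rpd3 mutant (ACY433) over wild type in KCl and in log growth (1 array each), the snt1 mutant (ACY591) over wild type in KCl (2 arrays), the kcs1/vip1 double mutant (ACY236, written kcs1vip1 here) over wild type in KCl (3 arrays), and wild type in KCl over wild type in log growth (3 arrays). Log growth was the middle of the logarithmic phase in rich medium (YEPD). Every KCl sample had the same dose and time. SNT1 encodes a scaffold subunit of another deacetylase complex, Set3, and KCS1 and VIP1 encode the kinases that make inositol pyrophosphates.

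Rpd3 is a class I histone deacetylase. It works in a large complex, Rpd3L, which proteins such as Ume6 bring to promoters, and in a small complex, Rpd3S, which acts over transcribed genes. Class I deacetylases can bind inositol phosphates where the enzyme meets its partner protein, a contact best known from human HDAC3. When yeast cells meet osmotic stress they turn down the genes that build ribosomes and turn up a common set of stress genes, and Rpd3L is known to take part in both arms of this response.

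Each value is a ratio as the authors deposited it and is read as a log2 ratio, so that 1 stands for a doubling and -1 for a halving of RNA in the mutant relative to wild type; the sources used here do not give the base of the logarithm. The KCl arrays held 5688 and 5800 values, against 5216 to 6206 over all arrays. Of 6249 genes or probes, 5674 had a value on both KCl arrays, 140 on 1 of them and 435 on neither. Across the 5674 genes, which are not independent replicates, the ratios of both arrays correlated with r = 0.86, and the median difference between the arrays was 0.30. The SD over genes was 0.95 and 0.93 on the KCl arrays and 0.82 and 0.80 on the Rpd3ibs log arrays. Genes were tested with limma over all 54 arrays that have a group, and a gene is said to have risen or fallen where the Benjamini-Hochberg adjusted p lay below 0.05. No label tells whether separate cultures stand behind the arrays. The p-values therefore refer to variation from array to array, which may be technical, and the small number of arrays restricts their precision. On all 4 Rpd3ibs arrays the mutant RNA carried Cy5 and the wild type RNA Cy3, so that dye and genotype cannot be told apart. A bulk ratio also does not separate fewer cells with an RNA from less RNA per cell. RPD3 itself had ratios of 0.12 and 0.31 in KCl (mean 0.21, adjusted p = 0.295) and had no value on either rpd3 array.

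In KCl the Rpd3ibs strain held more RNA of ribosome assembly genes than wild type and less RNA of NAD synthesis genes, of genes near chromosome ends and of some stress-induced genes. Of 5674 genes tested, 889 rose (15.7%) and 921 fell (16.2%) relative to wild type in KCl, 542 and 486 of them at least 2-fold, and the median over all genes was -0.04. Both arrays had the same sign for 1809 of the 1810 genes called, which a call on their mean largely requires. With KCl array 1 left out 864 genes were called, and with array 2 left out 917.

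The highest named gene was NSR1, a nucleolar protein needed to process ribosomal RNA. Its ratios were 3.16 and 3.18 on the KCl arrays (SE 0.46, adjusted p = 3.33e-06), against 0.53 and 0.40 on the log arrays. RRS1, an assembly factor of the large subunit, had 3.04 and 3.14 in KCl and 0.26 and 0.65 in log growth (adjusted p = 1.72e-06 in KCl). In both genes the KCl and log values lay far apart, and both were also named for that difference. DHR2, an RNA helicase of the small subunit pathway, had 2.94 and 3.17 in KCl (adjusted p = 0.000372) and 0.34 and 0.40 in log growth. AAH1, the adenine deaminase of purine salvage, had 2.97 and 2.60 in KCl (adjusted p = 2.01e-07) and 0.49 and 0.82 in log growth. Of the 15 highest named genes, AAH1, BUD25 and MF(ALPHA)2 are not known for ribosome assembly. BUD25 (2.50 and 3.05) and MF(ALPHA)2 (2.58 and 2.80), an alpha-factor gene, were as high in log growth, at 2.74 and 3.31 and at 2.17 and 2.85.

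Several of the lowest genes belonged to the synthesis of NAD from tryptophan and to transport and vitamin metabolism. Others did not, among them COS1, BAR1, TDH1 and GPM2. BNA1, the 3-hydroxyanthranilate dioxygenase, had -6.76 and -6.22 in KCl (SE 0.40, adjusted p = 1.67e-13) and -6.95 and -6.19 in log growth. DAL4, the allantoin permease, had -6.24 and -5.40 in KCl (adjusted p = 1.19e-13) and 1 value, -5.12, in log growth. SNZ2, of vitamin B6 synthesis, had -5.40 and -4.05 in KCl (adjusted p = 3.12e-13) and -3.94 and -2.98 in log growth. These genes were low in Rpd3ibs in both conditions. The plot of the 30 genes shows that most of the highest stood near 0 in log growth, while most of the lowest were low there too. TDH1, a glyceraldehyde-3-phosphate dehydrogenase, was less low in log growth, at -4.0 and -2.83 in KCl and -1.15 and -0.93 in log growth, and GPM2, of the phosphoglycerate mutase family, had no value there.

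**Figure D1:**
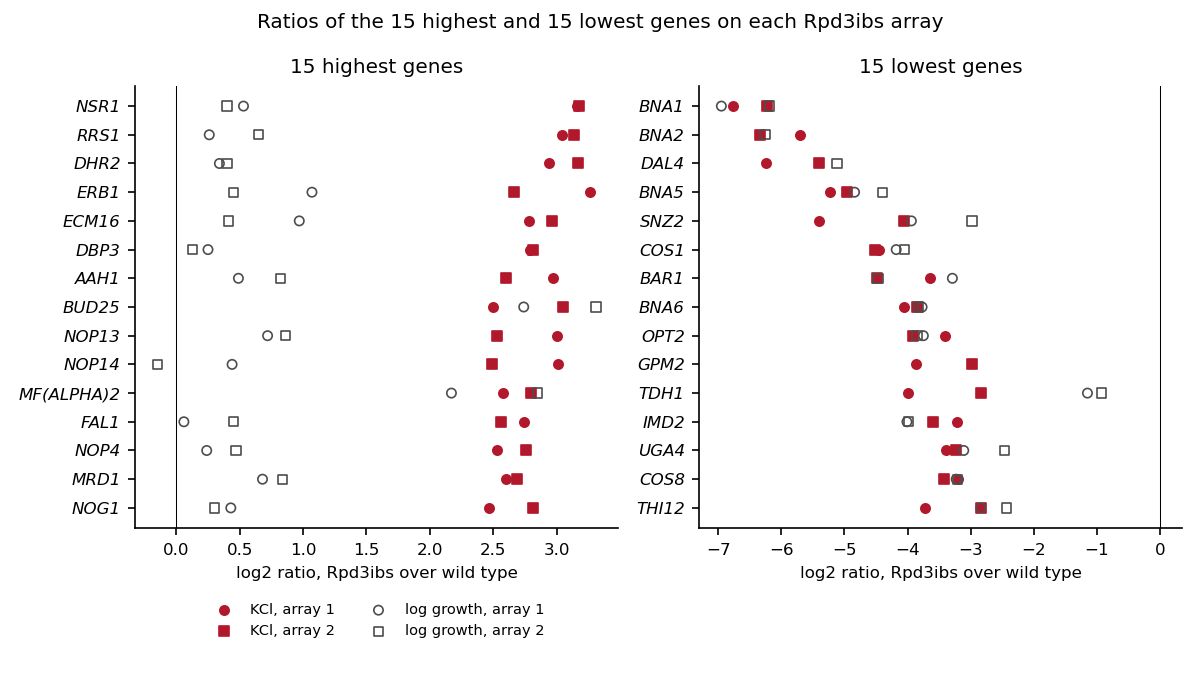
Log2 ratios of Rpd3ibs over wild type (x axis) for the 15 highest and the 15 lowest named genes (rows). Filled red marks are the 2 KCl arrays and open grey marks the 2 log arrays, circles for array 1 and squares for array 2. NSR1 lies at 3.16 and 3.18 in KCl and at 0.53 and 0.40 in log growth, whereas BNA1 lies at or below -6.19 on all 4 arrays.

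Genes of ribosome assembly had the largest counts of raised genes among the 47 lists examined. The small subunit processome is the particle that processes the precursor of the small ribosomal RNA, and 51 of its 56 tested genes rose in KCl while 5 did not pass; 15.7% of all genes rose. Their median ratio was 1.92 on array 1 and 1.81 on array 2, and the median of their means was 1.86, or 3.64-fold, against -0.04 for all genes. Among the factors that assemble the large subunit, 51 of 55 rose and 4 did not pass, with medians of 1.88 and 1.84 on the arrays. With either KCl array left out, 43 or 44 processome genes and 42 or 43 large subunit genes passed. ECM16, an RNA helicase of the processome, had 2.78 and 2.96 in KCl, and 0.97 and 0.41 in log growth (adjusted p = 3.70e-11 in KCl). NOP14, a processome protein, had 3.01 and 2.49 in KCl and 0.44 and -0.15 in log growth (adjusted p = 5.74e-08 in KCl). ERB1, of large subunit assembly, had 3.26 and 2.66 in KCl and 1.07 and 0.45 in log growth (adjusted p = 9.90e-10 in KCl). The KCl values of these 3 genes do not overlap their log values. These genes were picked by their KCl means, so this lack of overlap is no result for the list. DBP3, an RNA helicase of the large subunit pathway, had 2.79 and 2.81 in KCl and 0.25 and 0.13 in log growth (adjusted p = 1.81e-09 in KCl). The lowest mean ratio in KCl was -0.21 among processome genes and -0.11 among large subunit genes.

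Genes that transcribe ribosomal and transfer RNA were raised by less. The shares of all genes were 15.7% risen and 16.2% fallen. Of 13 RNA polymerase I genes 9 rose (5 without KCl array 1, 7 without array 2) and the median was 1.08. RRN11, a core initiation factor of polymerase I, had 2.39 and 2.32 in KCl and 0.37 and 0.48 in log growth (adjusted p = 8.77e-07 in KCl). The polymerase I subunit genes RPA49 (2.16 and 2.18) and RPA34 (1.98 and 2.25) rose too. Of 20 RNA polymerase III genes 9 rose and 2 fell, with a median of 0.75 (5 rose without array 1 and 3 without array 2, and none fell in either). RPC25 had 1.54 and 2.12 and RPC31 1.63 and 1.97, both subunits of polymerase III. Of 30 genes of tRNA modification and tRNA synthetases 12 rose and 18 did not pass, with a median of 0.39. The methyltransferase genes TRM2 (2.22 and 2.48) and TRM1 (2.38 and 2.02) led this group.

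Most ribosomal protein genes did not pass, and the shares of them that rose were below the 15.7% of all genes. Of 80 genes for large subunit proteins 6 rose (1 without KCl array 1, 0 without array 2) and 74 did not pass, and of 55 for small subunit proteins 2 rose and 53 did not pass (no gene passed with either array left out). Their medians were 0.35 and 0.41. At an unadjusted p below 0.05, 12 and 7 were higher. RPP2A, a stalk protein, had 1.64 and 1.68 in KCl (adjusted p = 0.00389) and 1.46 and 1.03 in log growth. On the wild type KCl arrays the same gene had -0.76 on the array with the KCl RNA in Cy3 and 1.43 and 1.36 on the arrays with the KCl RNA in Cy5. A like split between these arrays held for RPL16B (-0.77, against 1.48 and 1.22) and RPS14A (-0.99, against 1.06 and 1.05). It also held for the cell wall gene CCW12 (0.48, against 2.41 and 1.80) and the hexose transporter HXT17 (-1.26, against 1.78 and 1.70). The glyceraldehyde-3-phosphate dehydrogenase TDH3 split likewise (-0.12, against 2.49 and 3.38). All 6 of these genes rose in Rpd3ibs in KCl, and the part of the dye in that was not tested. The Cy3 array was the only one from its slide, so dye, slide and array cannot be told apart. Its median was -1.25 over large subunit protein genes, against -0.45 and 0.06 on the Cy5 arrays. Over small subunit protein genes it was -1.68, against -0.17 and 0.09. How many of all genes split in this way was not counted. NSR1 had -6.80 on the Cy3 array and -6.82 and -6.99 on the Cy5 arrays.

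**Figure D2:**
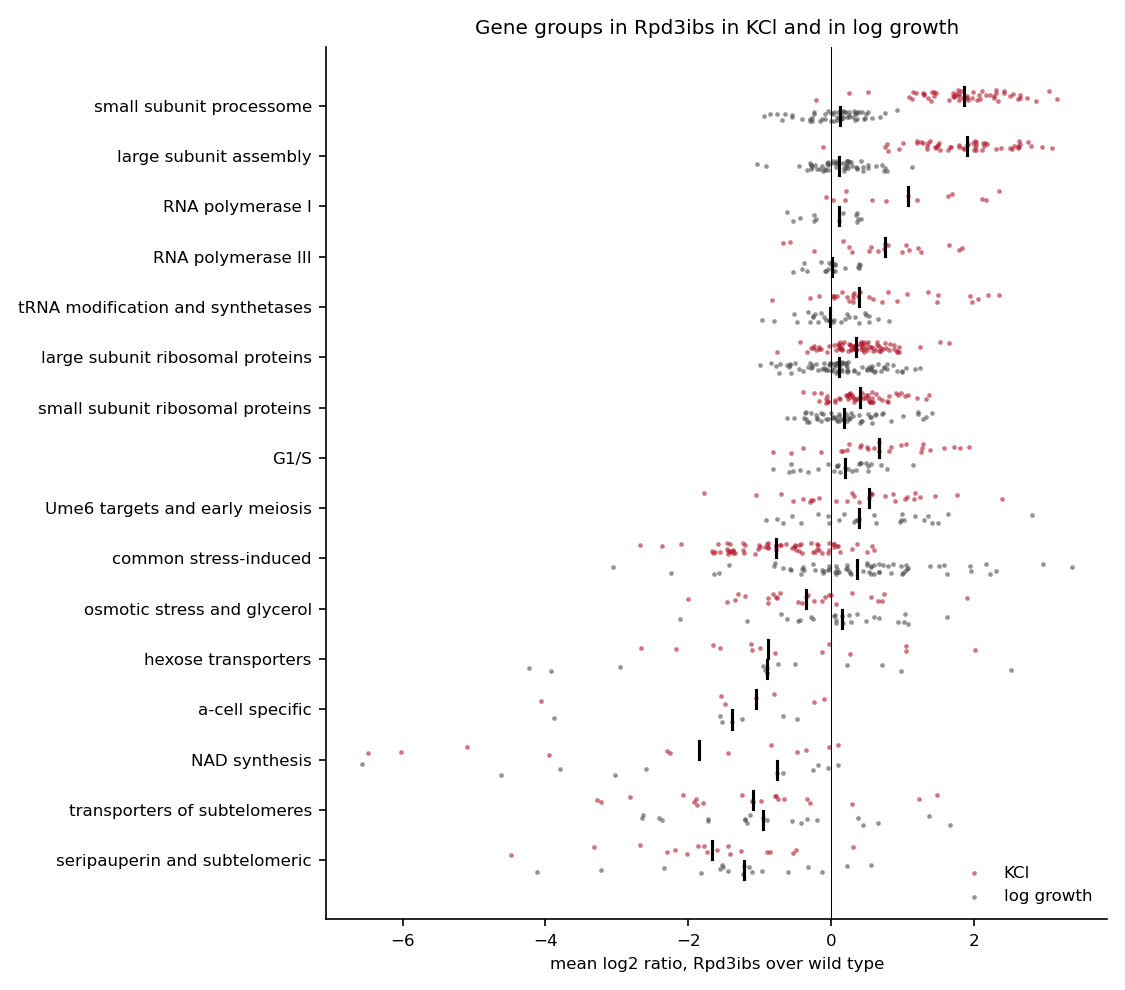
Mean log2 ratios of Rpd3ibs over wild type (x axis) of the genes in 16 groups (rows), in KCl (red, upper) and in log growth (grey, lower). Each point is 1 gene, the vertical shift of points carries no value and the black bar is the group's median. Processome genes have a median of 1.86 in KCl and 0.13 in log growth, while COS and seripauperin genes have medians of -1.67 and -1.22.

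Some of the genes that many stresses induce were lower in Rpd3ibs than in wild type under KCl. Of 69 tested common stress-induced genes 27 fell and 42 did not pass, where 16.2% of all genes fell. Their median was -0.72 on array 1 and -0.76 on array 2, and -0.77 for the means, or 1.70-fold lower. Without KCl array 1 only 14 fell, where 405 of all 5674 genes fell. Without array 2 only 6 fell, where 414 of 5674 did. GND2, a 6-phosphogluconate dehydrogenase, had -2.81 and -2.54 in KCl (SE 0.43, adjusted p = 1.54e-05) and -0.61 and -0.17 in log growth. HXT5, a hexose transporter of slow-growing cells, had -1.24 and -2.07 in KCl (adjusted p = 0.00674) and 0.86 and 1.09 in log growth. Both lay lower in KCl than in log growth on each array, and both were also named for that difference. GAC1, a phosphatase subunit that targets glycogen synthase, had -1.96 and -2.78 in KCl and -1.40 and -1.88 in log growth (adjusted p = 0.000368 in KCl). GPH1, the glycogen phosphorylase, had -1.86 and -2.34 in KCl and -1.74 and -1.39 in log growth (adjusted p = 0.00143 in KCl). PGM2, a phosphoglucomutase, had -1.22 and -2.10 in KCl and -1.49 and -1.37 in log growth (adjusted p = 0.000115 in KCl).

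Lists tied to single stresses held both risen and fallen genes. Of 27 osmotic stress and glycerol genes 6 fell (4 without KCl array 1, 1 without array 2), 1 rose and 20 did not pass, with a median of -0.35. Among all genes 16.2% fell and 15.7% rose. Those that fell included SIP18 (-2.50 and -1.51), GCY1, a glycerol dehydrogenase (-1.69 and -1.22), PUT4, the proline permease (-1.22 and -1.46) and MSN4, a transcription factor of the general stress response (-1.09 and -1.51). HOR7 had 1.60 and 2.20 and did not pass (adjusted p = 0.134). Of 26 heat shock and chaperone genes 3 rose and 1 fell, with a median of 0.03, shares below the 15.7% and 16.2% of all genes (1 rose and none fell with either KCl array left out). HSP30, a plasma membrane heat shock protein, had 2.09 and 2.08 in KCl and 1.45 and 2.16 in log growth (adjusted p = 0.00513 in KCl). SSA3, an Hsp70, had 2.07 and 1.37 in KCl and 1.86 and 0.99 in log growth, and the co-chaperone SIS1 had -0.94 and -0.78 in KCl. Of 22 oxidative defence genes 2 rose and 3 fell, also below the shares of all genes, with a median of 0.06 (1 rose and none fell without array 1, 1 rose and 3 fell without array 2). TSA2, a peroxiredoxin, had -3.24 and -1.98 in KCl, and the efflux pump gene ATR1 had 2.10 and 2.64.

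The enzymes that make NAD from tryptophan had the lowest median of the 47 lists in KCl. The share of all genes that fell was 16.2%. Of 12 NAD synthesis genes 8 fell and 4 did not pass, with medians of -1.71 and -1.93 on the arrays (6 fell without KCl array 1 and 7 without array 2). BNA2, the dioxygenase that opens the tryptophan ring, had -5.71 and -6.34 in KCl and 1 value, -6.26, in log growth. BNA5, the kynureninase, had -5.23 and -4.96 in KCl and -4.84 and -4.40 in log growth. BNA6, the quinolinate phosphoribosyltransferase, had -4.05 and -3.85 in KCl and -3.77 and -3.83 in log growth. BNA4, the kynurenine monooxygenase, was lowered less, at -2.27 and -2.33 in KCl and -2.80 and -2.38 in log growth. In these 4 genes the KCl and log values lay close together or overlapped, and all 4 fell in KCl (adjusted p from 1.16e-17 for BNA6 to 1.65e-07 for BNA4).

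Genes close to chromosome ends were often lowered. By gene order in the yeast annotation (assembly R64), 3954 of the 5674 tested genes or probes had a place. Probes without a symbol had none, so the shares below leave them out. Within 10 places of a chromosome end lay 135 tested genes. Of these 54 fell (40.0%) and 14 rose (10.4%), and their median was -0.46. Of 3819 genes farther in, 512 fell (13.4%) and 618 rose (16.2%), with a median of 0.02. Genes near ends were 3.41% of the genes with a place, 9.54% of those that fell and 16.3% of those that fell at least 2-fold. Of 18 seripauperin (PAU) and COS genes, both families of chromosome ends, 16 fell and 2 did not pass, and 14 passed with either KCl array left out. COS1 had -4.45 and -4.51 in KCl (SE 0.20, adjusted p = 1.96e-17) and -4.18 and -4.05 in log growth. COS8 had -3.20 and -3.43 in KCl and -3.23 and -3.21 in log growth. PAU5, a seripauperin gene, had -1.99 and -2.60 in KCl and -1.06 and -1.38 in log growth. All 3 genes fell in both conditions. The YRF1 genes, also at chromosome ends, did not pass in KCl, with means from -0.18 (YRF1-4) to 0.27 (YRF1-3). HXT17 (mean 2.02), ERR2 (1.325), ERR1 (1.235) and FLO1 (1.075), within 10 places of an end, rose. Of 21 genes of transporters and enzymes that are common near chromosome ends 13 fell, 1 rose and 7 did not pass (9 fell without KCl array 1, 11 without array 2). They included the thiamine synthesis genes THI12 (-3.72 and -2.84), THI11 (-3.38 and -3.07) and THI5 (-3.27 and -2.37), the vacuolar protein gene VTH1 (-1.80 and -2.35) and MAL13, an activator of maltose genes (-1.97 and -1.86). OPT2, a peptide transporter, had -3.40 and -3.92 in KCl and -3.75 and -3.85 in log growth, and IMD2, an IMP dehydrogenase, -3.22 and -3.60 in KCl and -4.01 and -3.98 in log growth; both lie within 10 places of an end. Whether probes of near-identical family members, such as those of COS, PAU, THI5, THI11 and THI12, measure 1 gene each was not tested.

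Permeases and enzymes for poor nitrogen sources were lowered in part. Of 31 nitrogen catabolite genes 10 fell (6 with either KCl array left out), 2 rose (none without array 1, 1 without array 2) and 19 did not pass, with a median of -0.45. The shares of all genes were 16.2% fallen and 15.7% risen. UGA4, the permease of gamma-aminobutyrate, had -3.39 and -3.24 in KCl and -3.11 and -2.46 in log growth (adjusted p = 1.51e-07 in KCl). DAL2, the allantoicase, had -2.09 and -1.46 in KCl, and GDH3, a glutamate dehydrogenase, -2.08 and -1.09. All 3 genes fell.

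Mating and meiosis genes went in both directions. Of 7 genes expressed only in a cells 4 fell and 3 did not pass (3 fell without KCl array 1 and 2 without array 2), and all 7 had means below 0. BAR1, the protease that destroys alpha factor, had -3.64 and -4.49 in KCl and -3.29 and -4.47 in log growth (adjusted p = 1.06e-06 in KCl). STE2, the alpha factor receptor, had -1.28 and -1.69 in KCl and -1.48 and -1.62 in log growth (adjusted p = 0.000664 in KCl). ASG7 (-1.71 and -1.38) and the a-factor gene MFA2 (-1.35 and -0.75) fell as well. Of 3 alpha-specific genes tested, MF(ALPHA)2 rose, and MF(ALPHA)1 (0.23 and 0.31) and SAG1 (0.25 and -0.53) did not pass. Only ratios were used here, so the mating type could not be checked by levels. Of 23 pheromone pathway and haploid genes 10 fell and 4 rose (3 and 1 without array 1, 5 and 2 without array 2). Among all genes 16.2% fell and 15.7% rose, so the share that rose was near that of all genes. FUS1, a cell fusion gene, had -2.60 and -1.80 in KCl and -1.23 and -0.45 in log growth, and SST2, which damps pheromone signalling, had -1.41 and -1.37 in KCl and -1.39 and -1.54 in log growth. HO, the mating-type switching endonuclease, had 1.60 and 1.89 in KCl and 0.30 and 0.50 in log growth.

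Ume6 brings Rpd3L to early meiosis genes, and of 29 tested genes of this group 9 rose, 2 fell and 18 did not pass, with a median of 0.54 (7 rose and 1 fell without KCl array 1, 6 rose and 2 fell without array 2). The shares of all genes were 15.7% risen and 16.2% fallen. REC102, of meiotic recombination, had 2.39 and 2.41 in KCl and 2.39 and 3.24 in log growth (adjusted p = 1.59e-05 in KCl). MND1, also of meiotic recombination, had 1.60 and 1.92 in KCl and 1.14 and 2.13 in log growth, and ZIP1, of the synaptonemal complex, 1.36 and 1.55 and 0.86 and 1.09. These 3 genes rose in both conditions. PHR1, the DNA photolyase and no meiosis gene, went the other way, at -1.66 and -1.89 in KCl (adjusted p = 2.73e-06) and -0.63 and -0.70 in log growth. It also lies within 10 places of a chromosome end. INO1, which makes inositol phosphate and is a classical Ume6 target, had 0.96 and 0.84 in KCl and 1.27 and 1.09 in log growth (adjusted p = 0.00592 in KCl).

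Among genes of the deacetylase complexes, UME6 rose in KCl (1.00 and 0.64, adjusted p = 0.00885), as did RXT2 (0.35 and 0.64, adjusted p = 0.04), and SDS3 fell (-0.80 and -1.38, adjusted p = 0.00275). These counts are near or below the shares of all genes that rose (15.7%) and fell (16.2%). Without KCl array 1 none rose and 1 fell, and without array 2 1 rose and none fell. The other 9 of 12 Rpd3L genes did not pass, among them SIN3, the scaffold of the complex (0.27 and -0.06). RCO1 (-0.04 and -0.24) and EAF3 (0.04 and 0.12) of Rpd3S did not pass. Of 6 Set3 genes CPR1, a prolyl isomerase, rose (1.16 and 1.44; none rose without array 2). DDP1, a phosphatase that can act on inositol pyrophosphates, fell, with -2.47 and -1.84 in KCl and -1.96 and -1.42 in log growth (adjusted p = 1.61e-05 in KCl), and was 1 of 8 genes of that pathway to pass. The deacetylase gene HOS1 fell too (-1.50 and -1.46 in KCl, -1.31 and -0.93 in log growth).

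Growth and metabolism lists were counted in the same way, beside 15.7% of all genes that rose and 16.2% that fell. Of 27 genes of the G1/S transition 13 rose (10 without KCl array 1, 9 without array 2) and 14 did not pass. SMC3, of the cohesin ring, had 1.93 and 1.94 in KCl and 0.73 and 0.40 in log growth, and CDC45, of the replication helicase, had 1.64 and 1.52 and 0.31 and 0.49. POL2, a DNA polymerase, had 1.79 and 1.66 in KCl and 1.32 and 0.99 in log growth. Of 42 Gcn4 targets, genes of amino acid synthesis, 10 rose and 1 fell, but none passed without KCl array 1 and 7 rose without array 2; LYS4, the homoaconitase, had 1.80 and 1.02 and MET6, the methionine synthase, 1.77 and 0.82. Of 14 hexose transporter genes 7 fell and 1 rose (4 fell without array 1, 3 without array 2). HXT6 had -2.25 and -3.08 in KCl and -4.29 and -4.16 in log growth, and its near-identical neighbour HXT7 had -1.75 and -2.59 in KCl and -3.85 and -4.0 in log growth. Of 31 oxidative phosphorylation genes 8 fell and 23 did not pass, with a median of -0.51 (1 fell without array 1, none without array 2), among them QCR9 (-1.52 and -1.38) and COX6 (-1.24 and -1.27). Of 60 mitochondrial ribosome genes 8 fell, a smaller share than the 16.2% of all genes, and 1 rose (1 fell without array 1, 3 without array 2, and none rose). In glycolysis and fermentation 5 of 23 genes rose and 5 fell, where 15.7% and 16.2% of all genes did (2 rose with either array left out, and 3 fell without array 1 and 4 without array 2). PYK2, a minor pyruvate kinase, had -2.88 and -3.14 in KCl and -4.11 and -4.45 in log growth, and ADH2, the ethanol-oxidising alcohol dehydrogenase, 2.70 and 2.52 in KCl and 1.92 and 1.72 in log growth. None of 10 histone genes passed in limma, and none had an unadjusted p below 0.05.

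Log growth was set beside KCl to see which differences between the strains were present without stress. In log growth 576 of 5597 genes rose (10.3%) and 568 fell (10.1%) in Rpd3ibs. Among the 5565 genes tested in both conditions, 402 fell in both, which is 45.8% of the 878 that fell in KCl and 71.3% of the 564 that fell in log growth. In both conditions 243 rose, 27.7% of the 877 that rose in KCl and 43.1% of the 564 that rose in log growth. Both conditions were run on the same 2 slides with the same dye order, and the part of this in the shared calls was not tested.

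The difference between the conditions was tested directly. Relative to wild type, 239 of 5565 genes were higher in Rpd3ibs in KCl than in log growth (4.29%) and 143 were lower (2.57%). The slide was a batch here, since KCl array 1 shared a slide with log array 1 and KCl array 2 with log array 2. With the slide as a block 370 genes were higher and 316 lower. Leaving out KCl array 1 or 2 gave 94 or 120 calls in all, and leaving out log array 1 or 2 gave 105 or 182. Ribosome assembly genes made up much of the first set: 40 of 56 processome genes and 36 of 55 large subunit genes were higher in KCl, with median differences of 1.77 and 1.84, whereas in log growth 1 gene of each group rose. With the slide as a block these counts were 50 and 46, and with 1 array left out at a time they were 7 to 16 and 12 to 19. NSR1 differed by 2.63 on slide 1 and 2.78 on slide 2 (SE 0.66, adjusted p = 0.00978), and DBP3 by 2.54 and 2.68 (adjusted p = 0.000111). Of 13 polymerase I genes 4 were higher in KCl (1 to 3 with 1 array left out), RPA43 by 2.32 on each slide. Of 27 G1/S genes 6 were higher (1 to 3 with 1 array left out, 3 with every array scaled to the same spread), with SMC3 at 1.20 and 1.54. No ribosomal protein gene of 135 passed in this contrast in limma, and 3 were higher at an unadjusted p below 0.05.

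Of 68 common stress-induced genes 21 were lower in KCl than in log growth and 1 was higher, with a median of -1.02 (29 lower with the slide as a block, 5 to 9 with 1 array left out). In log growth 18 of these genes rose and 5 fell in Rpd3ibs, with a median of 0.36. TKL2, a transketolase, had -0.65 and -1.19 in KCl and 3.42 and 3.32 in log growth, and differed by -4.07 on slide 1 and -4.51 on slide 2 (adjusted p = 2.22e-07). It rose in log growth and fell in KCl. XBP1, a stress-induced repressor, had -0.07 and -0.76 in KCl and 2.85 and 1.77 in log growth (adjusted p of the difference 0.005). PHM7 had -0.32 and -0.78 in KCl and 2.01 and 2.33 in log growth (adjusted p of the difference 0.00132). SSA4, an Hsp70, had 0.48 and 0.73 in KCl and 3.27 and 2.67 in log growth (adjusted p of the difference 0.00584). In all 4 genes the KCl values lay below both log values. They were named as among the lowest of this contrast, so that order was largely built in. NAD synthesis, a-specific, and pheromone pathway genes had no member that passed in this contrast (of 11, 7 and 22), where unadjusted p-values below 0.05 numbered 0, 0 and 3. The contrast called only 4.29% of all genes higher and 2.57% lower. At these shares lists of this size would hold few or no called genes. With the slide as a block 1 pheromone pathway gene was higher. Of 18 COS and seripauperin genes 1 was lower in KCl than in log growth, with a median difference of -0.31 and 17 of 18 below 0 (3 lower with the slide as a block, none with any 1 array left out).

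**Figure D3:**
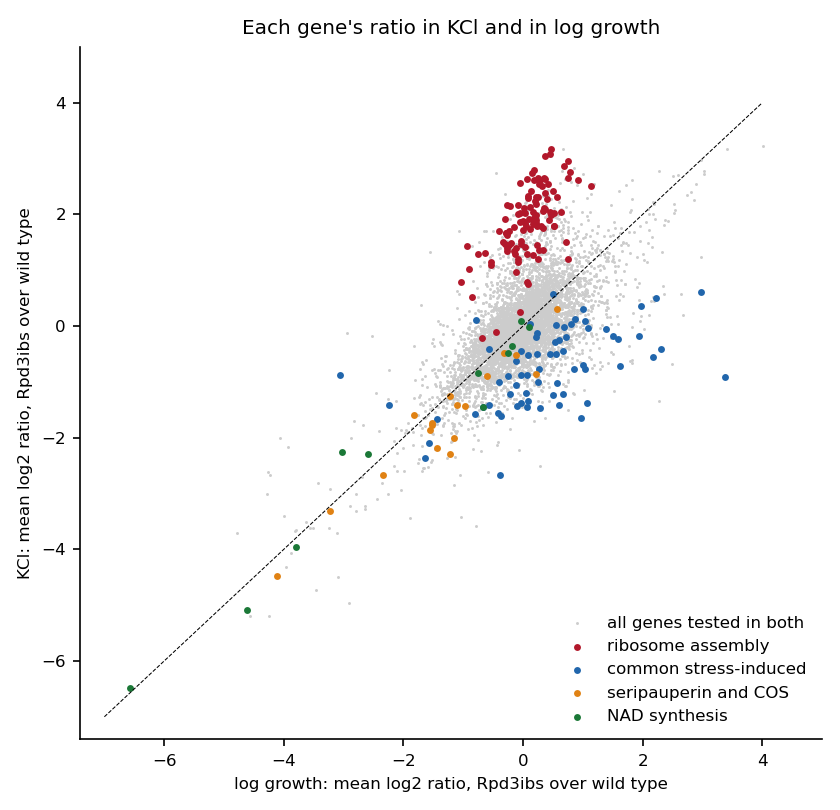
Mean log2 ratio of Rpd3ibs over wild type in KCl (y axis) against log growth (x axis), 1 point per gene tested in both, with 4 groups coloured and a dashed line where both are equal. Ribosome assembly genes (red) form a column near 0 in log growth and lie mostly between 1 and 3 in KCl, stress-induced genes (blue) lie mostly below the line, and NAD synthesis (green) and COS and seripauperin genes (orange) lie near it.

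The response of the Rpd3ibs strain to KCl was rebuilt, since no array measured it. It is the wild type ratio of KCl over log growth plus the Rpd3ibs ratio in KCl minus the Rpd3ibs ratio in log growth, so it contains the wild type arrays and is no independent comparison with them. By construction, its gap from the wild type response is the contrast of KCl with log growth given above. Comparisons of the rebuilt with the wild type response restate that contrast and are no further result. In the rebuilt response 475 of 5559 genes rose (8.54%) and 537 fell (9.66%). In wild type 1738 of 5863 rose (29.6%) and 1833 fell (31.3%), measured directly on 3 arrays. The rebuilt response adds the error of all its parts, so fewer genes pass at the same threshold for an equal change. Counts of called genes in Rpd3ibs and in wild type therefore do not compare the size of the responses. With every array scaled to the same spread the rebuilt response kept 67 genes that rose and 5 that fell, so that 93.1% of the calls rose, against 46.9% without scaling. Read in this way, the repression of ribosome assembly was smaller in Rpd3ibs. Processome genes had a median of -2.25 in Rpd3ibs and -4.20 in wild type, and large subunit assembly genes -2.60 in Rpd3ibs and -4.38 in wild type. All 56 processome and all 55 large subunit genes were closer to 0 in Rpd3ibs. This follows from the contrast of KCl with log growth, in which all 56 and all 55 were above 0. In each group 41 still fell in Rpd3ibs, against 56 and 55 in wild type. NSR1 fell to -4.17 in Rpd3ibs, against -6.87 in wild type, and ERB1 to -2.74, against -4.94. Common stress-induced genes had a median of 3.27 in Rpd3ibs and 4.54 in wild type, and 56 of 68 rose in Rpd3ibs, against 68 in wild type. HXT5 rose by 8.77 in Rpd3ibs, against 11.40 in wild type, and TKL2 by 4.60, against 8.89. NSR1, HXT5 and TKL2 were also named for the contrast of KCl with log growth. PGM2 rose by 6.85 in Rpd3ibs and 7.08 in wild type. Of 25 osmotic stress and glycerol genes 17 rose in Rpd3ibs and 19 in wild type, with medians of 2.48 and 3.59. Polymerase I genes had a median of -1.30 in Rpd3ibs and -3.23 in wild type.

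**Figure D4:**
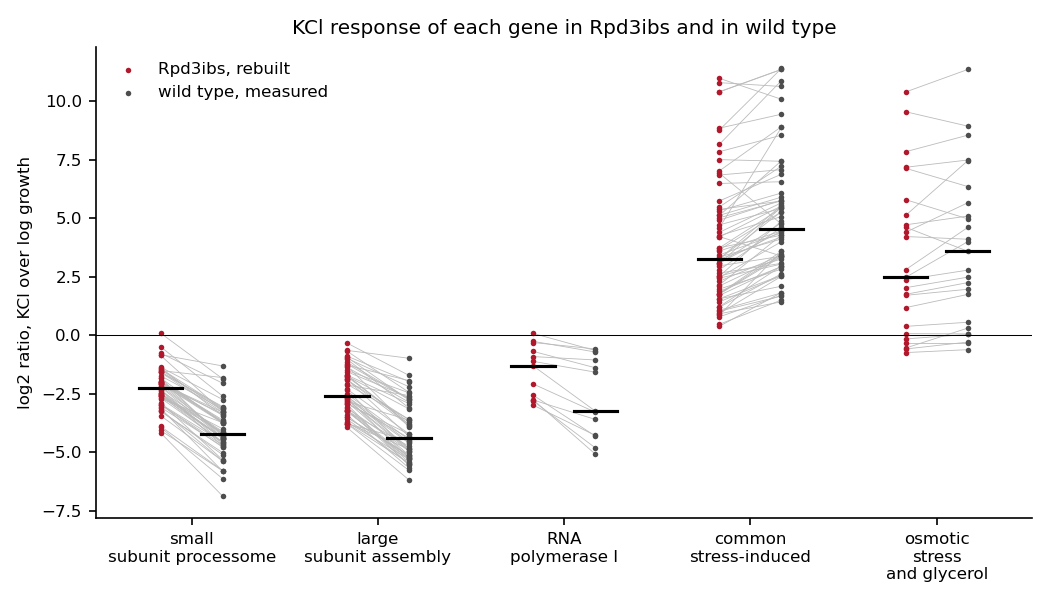
Log2 ratio of KCl over log growth (y axis) for each gene of 5 groups, in Rpd3ibs as rebuilt (red, left) and in wild type as measured (grey, right), with lines joining the same gene and black bars for medians. Every processome gene lies closer to 0 in Rpd3ibs, with medians of -2.25 and -4.20, and stress-induced genes have medians of 3.27 and 4.54. The gap between red and grey is by construction the KCl minus log growth difference of the Rpd3ibs ratios.

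The other mutants were compared with Rpd3ibs in KCl. All were measured against wild type RNA in KCl, which arrays may share, so values are given side by side. On the single array of the rpd3 mutant, which allows no test, processome genes had a median of 3.18 (52 of 56 at 1 or above) and large subunit genes 3.04 (51 of 53), against 1.86 and 1.90 in Rpd3ibs. NSR1 had 5.14, DHR2 7.57 and ERB1 4.69 there. The SD over genes was 1.30 on this rpd3 array and 0.95 and 0.93 on the Rpd3ibs KCl arrays. The part of this wider spread in the larger rpd3 values was not tested. Common stress-induced genes had a median of -1.35 in rpd3 and -0.77 in Rpd3ibs, and NAD synthesis genes -2.30 in rpd3 and -1.85 in Rpd3ibs. Ume6 target and early meiosis genes had a median of 1.79 in rpd3 and 0.54 in Rpd3ibs, with INO1 at 4.94 in rpd3 and at 0.96 and 0.84 in Rpd3ibs. BNA1 was -7.22 in rpd3 and BNA5 -5.12, near their Rpd3ibs values, and BAR1 was -4.90. COS and seripauperin genes had a median of -0.84 in rpd3 and -1.67 in Rpd3ibs. COS1 had -5.93 in rpd3, below both Rpd3ibs values, and COS8 -1.47, above both.

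Rpd3ibs and kcs1vip1 differed in KCl for 1241 of 5645 genes (22.0%), with 613 higher and 628 lower in Rpd3ibs; the count was 537 without Rpd3ibs array 1 and 690 without array 2. Processome genes had a median of 1.86 in Rpd3ibs (1.92 and 1.81 on its arrays) and 2.31 in kcs1vip1 (2.69, 1.84 and 2.20). Of these 56 genes 12 were lower in Rpd3ibs and 44 did not pass, where 628 of all 5645 genes were lower. NSR1 had 3.16 and 3.18 in Rpd3ibs and 2.88, 2.06 and 2.05 in kcs1vip1 (difference 0.84, adjusted p = 0.342). COS1 had -4.45 and -4.51 in Rpd3ibs and 0.53, 0.88 and 0.75 in kcs1vip1 (difference -5.20, adjusted p = 1.36e-15). BNA1 had -6.76 and -6.22 in Rpd3ibs and -0.86, -1.84 and -1.93 in kcs1vip1 (difference -4.95, adjusted p = 3.08e-08). Neither gene had overlapping values, but genes named for this contrast were chosen among those without overlap. Of 12 NAD synthesis genes 11 fell in kcs1vip1 too, with a median of -1.055, where 1479 of all 5788 genes fell. Between the mutants 5 of the 12 were lower in Rpd3ibs, 2 were higher and 5 did not pass. Of 69 common stress-induced genes 36 fell and 7 rose in kcs1vip1, with a median of -0.69. Between the mutants 12 of these were lower in Rpd3ibs and 11 higher. BAR1 was low in both mutants, at -5.16, -4.92 and -4.70 in kcs1vip1 (adjusted p of the difference 0.424). FIT2, a cell wall protein of iron uptake, had -1.96 and -1.79 in Rpd3ibs and 5.45, 2.36 and 3.96 in kcs1vip1 (difference -5.80). The copper-binding metallothionein CUP1-1, whose probe may not separate it from CUP1-2, had -1.44 and -1.16 in Rpd3ibs and 5.41, 3.59 and 2.76 in kcs1vip1 (difference -5.22). ARG1, the argininosuccinate synthetase, had 2.58 and 1.76 in Rpd3ibs and -3.01, -2.42 and -3.44 in kcs1vip1 (difference 5.13, adjusted p = 4.57e-07).

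**Figure D5:**
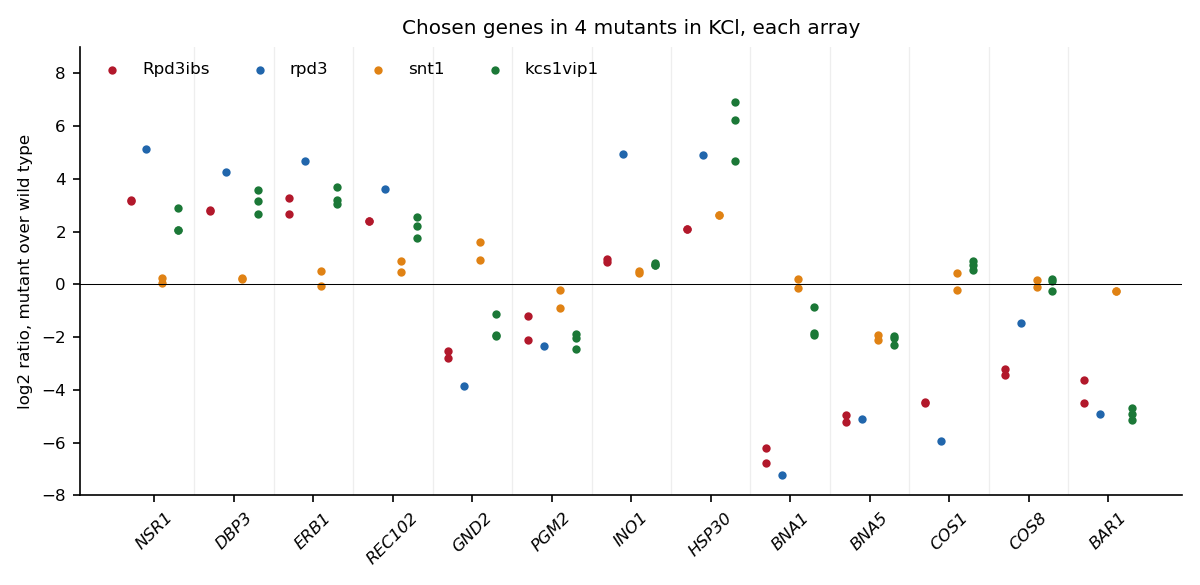
Log2 ratio of mutant over wild type in KCl (y axis) for 13 genes (x axis) on each array of Rpd3ibs (red), rpd3 (blue), snt1 (orange) and kcs1vip1 (green). NSR1 is above 2 in Rpd3ibs, rpd3 and kcs1vip1 and near 0 in snt1, and COS1 is below -4 in Rpd3ibs and rpd3 and between -0.21 and 0.88 in the other two.

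Rpd3ibs and snt1 differed in KCl for 1107 of 5620 genes (19.7%), with 589 higher and 518 lower in Rpd3ibs. The count was 640 without Rpd3ibs array 1, 723 without Rpd3ibs array 2, 685 without snt1 array 1 and 623 without snt1 array 2. Of 56 processome genes 42 were higher in Rpd3ibs, and of 54 large subunit genes 45. NSR1 had 3.16 and 3.18 in Rpd3ibs and 0.05 and 0.24 in snt1 (difference 3.02, adjusted p = 0.00113). GND2 had -2.81 and -2.54 in Rpd3ibs and 0.93 and 1.59 in snt1 (difference -3.94, adjusted p = 2.72e-05), and 28 of 67 common stress-induced genes were lower in Rpd3ibs. COS1 had -0.21 and 0.44 in snt1 and BNA1 0.19 and -0.15 (differences -4.60 and -6.51, adjusted p = 3.30e-13 and 1.23e-09). The values of these genes in Rpd3ibs and snt1 did not overlap, but lack of overlap was required of genes named for this contrast. Of 11 leucine synthesis genes 8 were higher in Rpd3ibs than in snt1 and 3 did not pass, and 7 were higher than in kcs1vip1 and 4 did not pass. Of all genes 19.7% differed from snt1 and 22.0% from kcs1vip1, in either direction. OAC1, the mitochondrial oxaloacetate carrier, had 0.10 and 0.03 in Rpd3ibs, -5.86 and -6.41 in snt1 and -5.87, -6.13 and -6.39 in kcs1vip1. LEU1, the isopropylmalate isomerase, had -0.02 and -0.42 in Rpd3ibs, -3.68 and -4.65 in snt1 and -5.49, -5.33 and -5.29 in kcs1vip1. BAT1, the mitochondrial branched-chain aminotransferase, had 0.58 and 0.41 in Rpd3ibs, -3.08 and -3.67 in snt1 and -2.71, -2.98 and -2.63 in kcs1vip1. The differences of OAC1 had adjusted p = 1.65e-12 against snt1 and 2.64e-13 against kcs1vip1. LEU2, an enzyme of leucine synthesis and also a selection marker in yeast strains, had 0.63 and 1.06 in Rpd3ibs, -3.31 and -3.98 in snt1 and -4.27, -4.33 and -4.41 in kcs1vip1. The sources used here do not list the selection markers of the strains.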

How the data were processed

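Both channels of each array held yeast RNA, mutant or stressed in one and wild type in the other. The log2 values used here are the ratios that the authors deposited in the series' value table. No background correction, normalisation or scale is described in the sources used here, and the dyes and directions are per the labels. Of 6317 entries 61 controls were left out. Of the remaining 6256 probes 4075 had 1 gene symbol and 2181 none, and the 7 symbols with several probes were averaged, which left 6249 genes or probes. In 3 columns with more decimals, 407 exact zeros were taken as missing. Medians per array ran from -0.09 to 0.38.

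All 54 arrays with a group, in 27 groups, entered 1 limma fit (limma 3.58.1 in R 4.3.3, eBayes, Benjamini-Hochberg adjustment over all genes of a comparison at 0.05), with 27 residual degrees of freedom; 1 array has no group and was not used. Differences between groups were contrasts of this fit, and genes without a value on every array of a 2-array group were not tested. Single rpd3 arrays had no test. KCl and log arrays pair by slide, from the labels: over 5565 genes, the array 1 minus array 2 differences in KCl and in log growth correlated with r = 0.78. Other centring, scaling, moderation, slide blocks, sets of arrays and single arrays left out were tried. The fit was tested on simulated data.

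The genes and the 47 lists, of whose 1284 members 1192 are on the array, were chosen with earlier results of these data known. Named genes are the 15 highest and lowest by mean in KCl, the 8 for KCl minus log growth, the 4 for each mutant contrast, up to 5 of each list by size, and the complex subunits. Genes named by mean in KCl had the same sign on both arrays, and those for KCl minus log growth on both slides. Genes named for a mutant contrast had no overlap between the groups. RPL16B, RPS14A, CCW12, HXT17 and TDH3 were set beside the dye orientation after their values were seen. Distance from a chromosome end was taken as gene order, in place of a planned distance in bases, and no sequence is reported here. Figures were drawn with matplotlib 3.10.9.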

Additional observations from a re-analysis of the deposited data

Results flagged for a closer look

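For 16 genes the ratio of Rpd3ibs over wild type differed between KCl and log growth by the limma contrast of these conditions; they are the 8 highest and 8 lowest named genes of that contrast. The ratio was higher in KCl for the permease gene MMP1 (by 2.90), the hexose transporter HXT4 (2.83), STR3 of cysteine and methionine metabolism (2.79), NSR1 (2.71), the tRNA methyltransferase PPM2 (2.67), RRS1 (2.64), DBP3 (2.61) and NOP14 (2.61), all on the log2 scale. HXT4 had 0.44 and -0.69 in KCl and -2.94 and -2.96 in log growth, and MMP1 had 1.67 and 1.00 in KCl and -1.73 and -1.39 in log growth. STR3 had 1.22 and 2.20 in KCl and -1.11 and -1.04 in log growth, and PPM2 had 2.62 and 2.10 in KCl and -0.06 and -0.55 in log growth. The ratio was lower in KCl for TKL2 (-4.29), XBP1 (-2.73), PHM7 (-2.72), the thiazole synthesis gene THI4 (-2.68), HXT5 (-2.63), BAG7 (-2.44), SSA4 (-2.37) and GND2 (-2.29). THI4 had -1.79 and -0.53 in KCl and 1.13 and 1.90 in log growth, and BAG7, a GTPase-activating protein, had -1.17 and -1.58 in KCl and 0.89 and 1.24 in log growth.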

How the results depend on the processing

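No named gene that was called in KCl (171) or between KCl and log growth (41) changed sign under any alternative. Such a change was hardly possible, since genes are called mostly where their arrays go the same way. Among the values under alternatives, 158 of 1659 and 117 of 524 no longer passed, mostly with 1 array left out. All 41 passed with the slide as a block, fixed or random. Leaving out 1 array lowered the 1810 calls in KCl to 864 to 917, the 382 calls between KCl and log growth to 94 to 182, the 1241 against kcs1vip1 to 537 to 1119 and the 1107 against snt1 to 623 to 723, with fewer samples in each fit. For KCl minus log growth the replicate block by slide gave 686 calls, 381 of them shared with the 382, and a random slide block gave 756. With the replicate block by slide, 970 genes differed from snt1. Scaling every array to the same spread gave 224 calls between KCl and log growth, 578 against kcs1vip1 and 72 in the rebuilt response, and the cause was not tested. With 2 arrays a group, small differences may be missed, and signal over background was not used here.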
